A study of Mus musculus with 10 samples.

Results

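Ankub1, Slitrk6, Ldlrad1, Shisal2a, Cmbl, Plxnb3 and Sytl1 are 7 genes with large decreases in nasal respiratory epithelium of mouse embryos that lack the miR-34/449 family. They are 7 of 22180 genes with a probe set that carries 1 gene symbol in the platform annotation, and 7 of 16635 genes bright enough to be tested. They were chosen on the measured difference itself: each was lower on every knockout array than on every wild-type array. That difference is therefore given as a description, with no test. Each gene was measured by 1 probe set, none of which names another gene.

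The study compared the epithelium lining the respiratory part of the nose between 5 wild-type (WT) embryos and 5 triple knockout (TKO) embryos, all at embryonic stage E16.5. The TKO embryos were miR-34a-/-, and also miR-34b/c-/- and miR-449a/b/c-/-, as the labels give them. WT embryos were 4 females and 1 male (WT 3), and TKO embryos were 2 females (TKO 1 and TKO 3) and 3 males. The tissue was cut by laser capture from sections of formalin-fixed, paraffin-embedded embryos, and its RNA was amplified and hybridised to Affymetrix arrays, with 1 embryo an array. The labels name neither strain nor litter, so p-values measure the spread between these arrays. No transgene or Cre is named, and the genotype is that of the whole embryo rather than of the epithelium alone.

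Respiratory epithelium is a sheet of basal, secretory and multiciliated cells, and the multiciliated cells carry many motile cilia that move mucus. The miR-34/449 microRNAs are abundant in multiciliated cells and are known to promote the assembly of basal bodies, from which cilia grow. A microRNA represses transcripts by pairing of its seed, bases 2 to 8, with a target transcript. In dissected tissue, fewer cells of a type and less RNA per cell cannot be told apart.

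The microRNAs removed in the knockout are shown because they define the comparison. Mature sequences from RefSeq were found for 4 of them, with the seed in capitals, and all 4 share the seed GGCAGUG.
mmu-miR-34a-5p: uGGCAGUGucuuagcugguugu
mmu-miR-34b-5p: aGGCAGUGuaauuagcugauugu
mmu-miR-449a-5p: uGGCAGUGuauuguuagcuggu
mmu-miR-449c-5p: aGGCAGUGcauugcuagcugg

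The 250 bases before the RefSeq start of a gene (build GRCm38.p6) were found for 6 of the 7 genes. Those of 3 genes are shown as examples of the windows, which were searched for motifs of factors that act at ciliary genes. These 3 genes varied with one another across arrays, as did other pairs of the 7.
Ankub1, chr3:57692538-57692787, minus strand: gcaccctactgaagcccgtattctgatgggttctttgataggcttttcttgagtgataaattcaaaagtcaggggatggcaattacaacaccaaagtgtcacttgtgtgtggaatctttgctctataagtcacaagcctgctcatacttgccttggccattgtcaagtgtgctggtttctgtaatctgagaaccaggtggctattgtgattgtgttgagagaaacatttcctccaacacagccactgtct
Shisal2a, chr4:108383656-108383905, minus strand: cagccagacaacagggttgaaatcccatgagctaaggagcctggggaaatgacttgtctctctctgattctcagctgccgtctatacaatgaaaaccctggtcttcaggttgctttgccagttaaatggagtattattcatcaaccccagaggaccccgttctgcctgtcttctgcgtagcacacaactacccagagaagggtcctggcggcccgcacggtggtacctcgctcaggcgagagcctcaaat
Plxnb3, chrX:73756853-73757102, plus strand: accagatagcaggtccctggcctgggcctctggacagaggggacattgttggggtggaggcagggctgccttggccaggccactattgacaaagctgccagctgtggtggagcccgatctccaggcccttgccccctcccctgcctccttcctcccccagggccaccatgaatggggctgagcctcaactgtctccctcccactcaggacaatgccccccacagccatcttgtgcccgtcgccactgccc
The core RFX motif GTTGCC and the forkhead motif GTAAACA were searched on both strands of all 6 windows. RFX factors and the forkhead factor Foxj1 are transcription factors of ciliary genes. None of the 6 windows held either motif, so no base is in capitals. Of 32851 promoter windows of this length, 10.4% held the RFX motif and 3.17% the forkhead motif. Among 116 windows of motile cilium genes, 33.6% held the RFX motif and 6.90% the forkhead motif. The absence of these letters from a window says nothing of the factors themselves.

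All values are log2 RMA intensities, on which a difference of 1 is a doubling of the signal. Because probe sets differ in brightness, levels are compared between arrays and not between genes. The arrays were alike, with correlations between 0.975 and 0.989 over all probe sets. Markers of the labelled tissue were bright. Foxj1 lay at 10.86 in WT and 11.04 in TKO and the axonemal dynein gene Dnah5 at 9.67 and 9.71, with the epithelial keratin gene Krt8 at 11.57 and 11.60. Omp, which marks mature olfactory neurons, ranged from 5.90 to 7.42 over the arrays. The deleted Mir449a fell from 7.20 to 5.41 and Mir449c from 7.26 to 3.67. Mir449b, of the same locus, stayed bright, with a WT mean of 12.17 and a TKO mean of 11.79. Its decrease was small (TKO minus WT -0.33, limma adjusted p = 0.0259). Mir34b lay at 5.76 and 5.49 and did not pass (limma adjusted p = 0.129), and Mir34a (3.46 and 3.40) and Mir34c (3.28 and 3.11) were below the brightness filter in both groups. Whether these probe sets lie inside the deleted sequence is not known here.

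Ankub1 encodes a protein with ankyrin repeats and a ubiquitin-like domain, and its function is little known. Its log2 intensity was 7.06, 6.82, 7.40, 7.33 and 6.48 in WT 1 to 5, and 5.51, 5.73, 6.05, 5.58 and 5.61 in TKO 1 to 5. The groups were 0.44 apart at their nearest arrays, the widest gap of the 7 genes. The means were 7.02 ± 0.38 (SD, n = 5) in WT and 5.70 ± 0.21 (SD, n = 5) in TKO. With sex in the model, TKO minus WT was -1.37 (SE 0.19), or 2.58-fold lower.

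Slitrk6 encodes a membrane protein with leucine-rich repeats, of a family that shapes neurite growth and synapses, and is needed for the wiring of the inner ear. WT 1 to 5 had log2 intensities of 6.56, 6.95, 6.97, 6.48 and 5.89, and TKO 1 to 5 had 5.02, 5.44, 5.46, 5.09 and 5.54. The lowest WT array stood 0.35 above the highest TKO array. TKO minus WT was -1.37 (SE 0.20), also 2.58-fold lower, from 6.57 ± 0.44 to 5.31 ± 0.24 (SD, n = 5 each).

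Ldlrad1 encodes a membrane protein with low density lipoprotein receptor class A repeats. Its log2 intensities were 7.98, 8.07, 8.78, 8.35 and 7.37 in WT 1 to 5 and 7.05, 7.30, 7.12, 6.96 and 7.24 in TKO 1 to 5. The TKO arrays were close together, while WT 5 lay only 0.070 above the highest of them. TKO minus WT was -1.13 (SE 0.20), or 2.19-fold lower, from 8.11 ± 0.52 to 7.14 ± 0.14 (SD, n = 5 each).

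Shisal2a encodes a shisa-like membrane protein. Log2 intensities were 8.61, 8.39, 9.17, 8.77 and 7.95 in WT 1 to 5, and 7.42, 7.30, 7.85, 7.67 and 7.47 in TKO 1 to 5. WT 5 was again the WT array nearest to the knockouts, 0.099 above TKO 3. TKO minus WT was -1.11 (SE 0.20), or 2.17-fold lower, from 8.58 ± 0.45 to 7.54 ± 0.22 (SD, n = 5 each).

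Cmbl encodes a cysteine hydrolase that splits esters and activates some prodrugs. Its log2 intensities were 7.90, 8.45, 8.37, 7.91 and 7.31 in WT 1 to 5, and 7.07, 7.17, 7.15, 7.11 and 7.31 in TKO 1 to 5. WT 5 and TKO 5 were nearly equal, 0.0024 apart, so the absence of overlap rests on a difference smaller than either group's spread. TKO minus WT was -0.93 (SE 0.18), or 1.90-fold lower, from 7.99 ± 0.46 to 7.16 ± 0.092 (SD, n = 5 each).

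Plxnb3, on the X chromosome, encodes plexin-B3, a receptor of semaphorin 5A in axon guidance and cell migration. Log2 intensities were 6.12, 6.41, 6.57, 6.47 and 5.61 in WT 1 to 5, and 5.39, 5.50, 5.59, 5.60 and 5.40 in TKO 1 to 5. WT 5 was 0.013 above the highest TKO array. TKO minus WT was -0.81 (SE 0.17), or 1.75-fold lower, from 6.24 ± 0.39 to 5.50 ± 0.10 (SD, n = 5 each).

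Sytl1 encodes synaptotagmin-like protein 1, an effector of the small GTPase Rab27 in the docking of secretory vesicles. It had log2 intensities of 7.42, 7.98, 7.76, 7.88 and 7.29 in WT 1 to 5, and 6.81, 6.88, 6.81, 7.07 and 7.16 in TKO 1 to 5. The groups were 0.13 apart. TKO minus WT was -0.80 (SE 0.14), or 1.74-fold lower, from 7.67 ± 0.30 to 6.95 ± 0.16 (SD, n = 5 each).

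**Figure D1:**
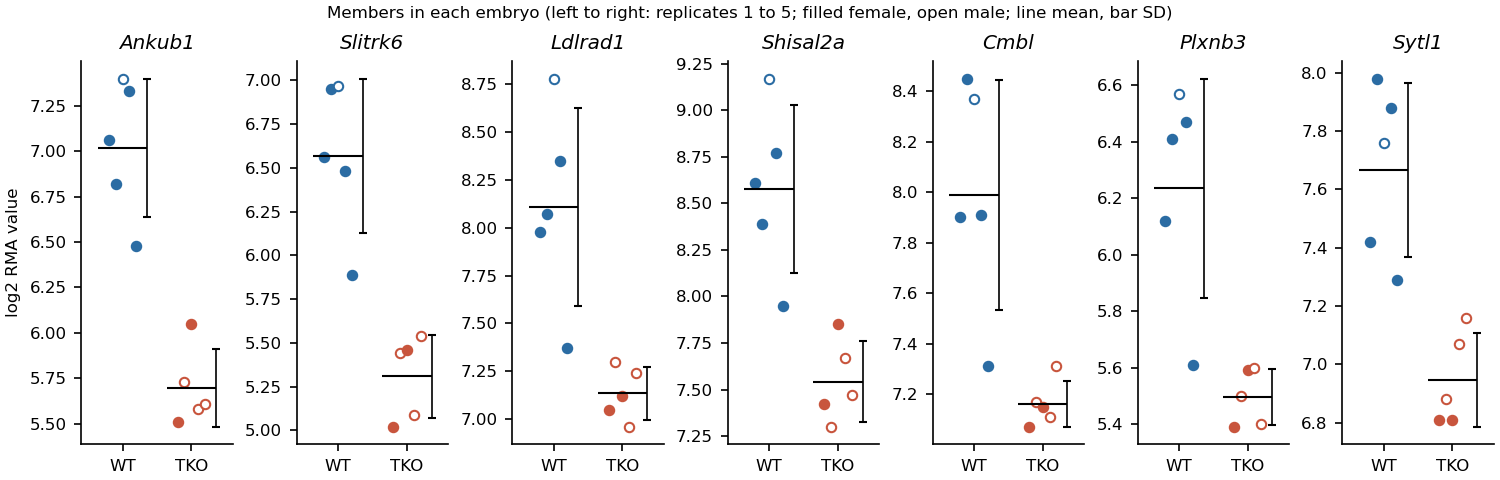
Log2 RMA intensity of the 7 genes on each array (points), by genotype, with the mean and SD of each group of 5. Before rounding, every WT value lies above every TKO value, by 0.44 for Ankub1 and by 0.0024 for Cmbl. The points are drawn from rounded values, so those of Cmbl in WT 5 and TKO 5 are level at 7.31.

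Of the 16635 genes tested, 344 (2.07%) were lower on all TKO arrays than on all WT arrays, and 921 (5.54%) were higher on all of them. The first of these is the property the 7 genes were chosen for. Ordered by the size of the decrease over all 16635 genes tested, the 7 held places 24, 25, 43, 45, 69, 94 and 97, so larger decreases were also measured in genes outside the group. Trim34a and Btg4, also lower on all TKO arrays, had differences of -1.16 and -0.88, within the range of the 7. Below Sytl1 at -0.80, the next genes of this kind with a common symbol and a limma call were Alx1, Cdc14a and Clec12a, each at -0.75. Limma (an empirical Bayes linear model, with sex as a term and Benjamini-Hochberg adjustment over all genes) called 916 genes (5.51%), of which 730 (4.39%) were higher and 186 (1.12%) lower in TKO.

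The 7 genes varied more among the WT arrays than among the TKO arrays. The WT SD was 1.79 times the TKO SD for Ankub1, 1.86 for Slitrk6, 3.67 for Ldlrad1, 2.08 for Shisal2a, 4.95 for Cmbl, 3.89 for Plxnb3 and 1.84 for Sytl1. The median ratio was 1.04 over all genes tested and 1.61 over 117 motile cilium genes. Between 82.6% and 99.2% of genes had a lower ratio than these 7. The ratios share the arrays with the rule that chose the genes and are not tested.

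WT 5 was the lowest WT array for 7 of the 7 genes, and WT 3, the only WT male, was the highest for 5 of them. The same arrays stood out in ciliary genes: WT 5 was the lowest WT array for 106 of 117 motile cilium genes (90.6%), against 22.4% of all genes tested. WT 3 was the highest for 88 of them (75.2%), against 18.9% of all genes. WT 5 was also the highest WT array for 18 of 21 olfactory neuron genes (85.7%), against 26.0% of all genes.

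To ask whether the 7 genes vary with ciliary genes inside a genotype, a ciliary score was computed as the mean of 117 motile cilium genes (of 141 listed), each centred on its own mean, with none of the 7 among them. The score was -0.05, 0.15, 0.28, 0.14 and -0.26 in WT 1 to 5, and -0.10, 0.08, 0.07, -0.14 and -0.18 in TKO 1 to 5. The genotypes overlapped on it, with means 0.10 apart. Of the 117 genes, 2 rose and 4 fell in TKO by limma, where 4.39% of all genes tested rose and 1.12% fell. The median difference was -0.13 against -0.00052 over all genes tested.

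With genotype in the model, limma's slope on the ciliary score passed the test over all genes for 2 of the 7, Ldlrad1 and Plxnb3, where 3.45% of all genes passed, 3.04% with a positive and 0.415% with a negative slope. A slope is the change in log2 intensity for each unit of the score. It was 1.88 (SE 0.38, adjusted p = 0.0191) for Ldlrad1 and 1.46 (SE 0.31, adjusted p = 0.0257) for Plxnb3. The other 5 slopes were also positive but missed the threshold, at 1.43 (limma adjusted p = 0.0618) for Ankub1, 1.59 (0.0794) for Slitrk6, 1.42 (0.0970) for Cmbl, 1.43 (0.143) for Shisal2a and 0.66 (0.507) for Sytl1. Both calls rested on single WT arrays. Without WT 5, limma's adjusted p was 0.368 for Ldlrad1 and 0.492 for Plxnb3, and without WT 3 it was 0.118 and 0.107. Plxnb3 also missed the threshold without WT 4, at an adjusted p of 0.0505 by limma. Without WT 5, limma called a slope for 0 of 16635 genes, with 1706 at an unadjusted p under 0.05, so the calls depended on that array.

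The same relation was measured as a correlation over the 10 arrays of values centred within genotype, with an exact permutation test over all 14400 reorderings within genotype, of which the smallest possible p is 6.94e-05. Pearson's r for Plxnb3 was 0.88 (exact permutation p = 0.00611, adjusted over all genes 0.145) and Spearman's rho was 0.71 (exact permutation p = 0.0430). Ldlrad1 had r of 0.85 (exact permutation p = 0.0100, adjusted 0.180) and rho of 0.71 (exact permutation p = 0.0463). Ankub1 had r of 0.80 (exact permutation p = 0.0223, adjusted 0.262) and rho of 0.59 (exact permutation p = 0.121). Slitrk6 had r of 0.77 (exact permutation p = 0.0255, adjusted 0.280) and rho of 0.59 (exact permutation p = 0.110). None of the 7 passed this test after adjustment, while 30 of all genes tested did and 2227 did before adjustment.

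Cmbl had r of 0.74 (exact permutation p = 0.0644, adjusted 0.416) and rho of 0.59 (exact permutation p = 0.121). Shisal2a had r of 0.69 (exact permutation p = 0.0738, adjusted 0.439) and rho of 0.41 (exact permutation p = 0.295). Sytl1 had r of 0.47 (exact permutation p = 0.276, adjusted 0.697) and rho of 0.21 (exact permutation p = 0.612). Without WT 3 and WT 5, the arrays farthest from the median score, r was 0.64 for Plxnb3, 0.49 for Ldlrad1, 0.47 for Ankub1, 0.36 for Slitrk6, 0.20 for Cmbl, 0.052 for Sytl1 and 0.019 for Shisal2a. With those arrays, r had been 0.88 for Plxnb3, 0.85 for Ldlrad1, 0.80 for Ankub1 and 0.77 for Slitrk6, so it fell for every gene. The correlations of Cmbl, Shisal2a and Sytl1 therefore rested largely on those arrays, and those of the other genes did so in part. The values without those arrays were not tested.

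**Figure D2:**
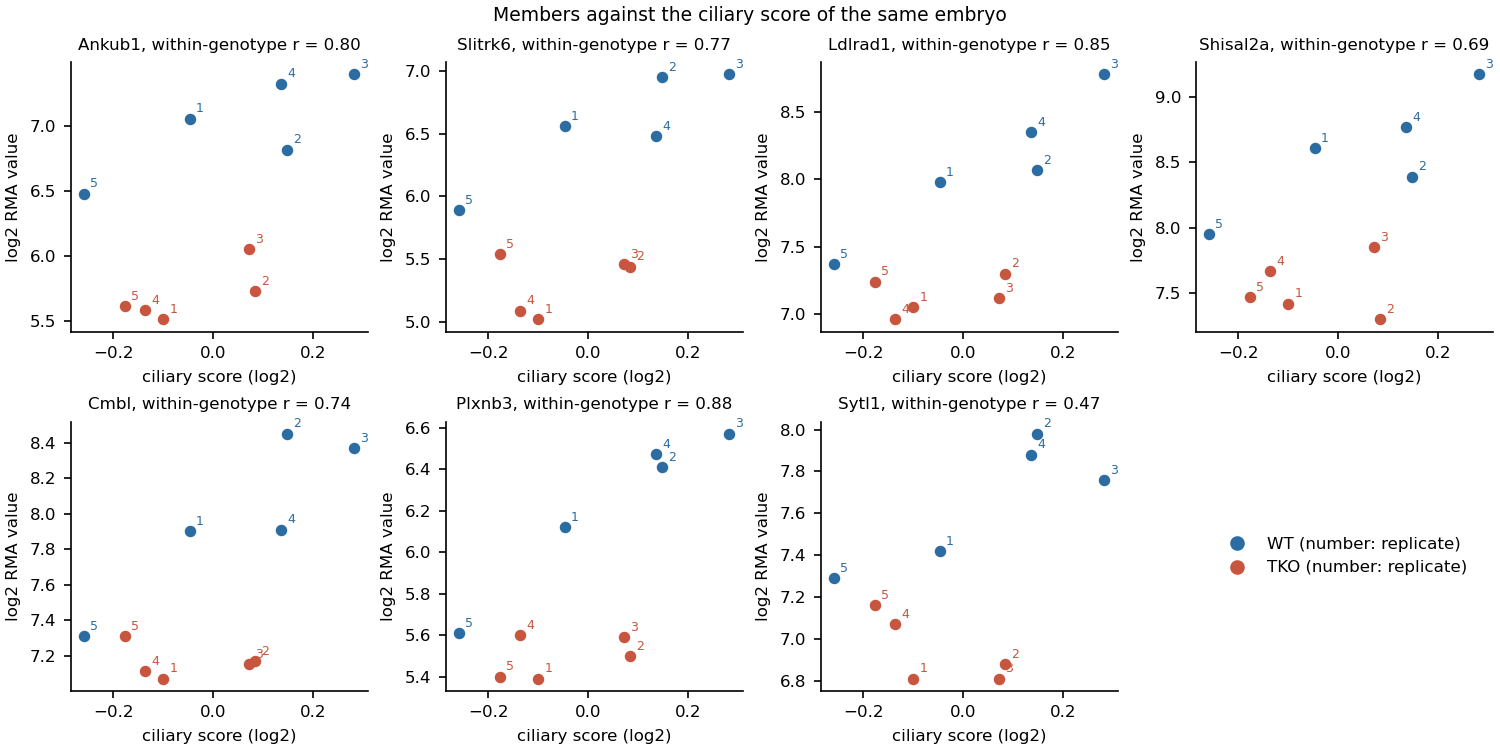
Log2 intensity of each of the 7 genes against the ciliary score of the same array, with WT and TKO arrays in separate colours. For each gene, all TKO values lie below all WT values before rounding, as the rule that chose the genes required. The points are drawn from rounded values. WT 5 has both the lowest score (-0.26) and the lowest WT value of every gene.

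Fitted by genotype, the slope was 2.35 in WT and 0.47 in TKO for Ldlrad1, 1.96 and -0.18 for Cmbl, 1.20 and -0.97 for Sytl1, 1.83 and 0.37 for Plxnb3, 1.86 and 0.14 for Shisal2a, and 1.90 and 0.68 for Slitrk6. Ankub1 had nearly equal slopes, 1.47 and 1.31. Limma's test of a difference in slope between genotypes passed for 0 of the 7 genes and 0 of all genes tested (0%), with 1514 genes (9.10%) at an unadjusted p under 0.05. Among those were 4 of the 7, Sytl1, Cmbl, Ldlrad1 and Plxnb3, each with a limma adjusted p between 0.545 and 0.546. The rule that chose the genes used these values, and the 7 varied less among the TKO than the WT arrays. This count is therefore no support for a difference in slope. The TKO scores spanned a narrower range than the WT scores.

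The score is the mean of the single ciliary genes, so their correlations are no added support for the relation and are given to show its range. Values of Ankub1, Slitrk6, Ldlrad1, Cmbl and Plxnb3 correlated positively within genotype with 117 of 117 motile cilium genes, those of Sytl1 with 116 and those of Shisal2a with 115. Between 43.8% and 48.3% of all genes did so. The median r over the list was 0.81 for Plxnb3, 0.79 for Ldlrad1, 0.72 for Ankub1, 0.70 for Slitrk6, 0.67 for Cmbl, 0.64 for Shisal2a and 0.41 for Sytl1. The closest ciliary genes were Wdr38 for Plxnb3 (r = 0.98), the radial spoke gene Rsph3a for Ldlrad1 (0.96), Ccdc153 for Shisal2a (0.93), Ropn1l for Ankub1 (0.90), Rsph3b for Slitrk6 (0.90), Cfap221 for Cmbl (0.90) and Dnaaf4 for Sytl1 (0.68). These correlations are over 10 arrays that share WT 3 and WT 5 and are given without a test.

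Over all genes with a common symbol, the 3 most like each of the 7 were mostly not on the ciliary list. Plxnb3 was most like Cd274 (r = 0.98), Fndc7 and Wdr38 (0.98 each). Ldlrad1 was most like Odc1 (0.97), Fmo5 and Gfod2 (0.96 each), and Ankub1 like Grk4 (0.97), Ttc39d and Tspan2os (0.96 each). Slitrk6 was most like Baiap2, Foxp4 and Abhd11 (0.95 each), and Cmbl like C2cd4b, Mfsd7a and Hsf2bp (0.96 each). Shisal2a was most like Fbxl2 (0.97), Nkapl (0.95) and Galp (0.94), and Sytl1 like Nipal3 (0.97), Necab3 and Ccl1 (0.95 each). Among the 100 genes most like each one, ciliary genes numbered 12 for Ldlrad1, 11 for Plxnb3, 8 for Ankub1, 6 for Slitrk6, 5 for Cmbl, 3 for Shisal2a and 0 for Sytl1, where 0.703% of genes tested are on the ciliary list.

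The 7 genes also varied together. Their 21 pairs had correlations within genotype from 0.30 to 0.93, with a median of 0.76. Slitrk6 and Cmbl were closest (0.93), followed among others by Ankub1 with Shisal2a (0.89) and Ldlrad1 with Plxnb3 (0.85). Ankub1 and Sytl1 were the least alike (0.30). These correlations share WT 5, the lowest WT array for all 7, and WT 3, the highest for 5. They are given without a test, and pairs of other genes were not measured beside them.

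Scores of other cell types moved with the 7 genes as well. Within genotype, r with the olfactory neuron score was -0.61 for Ankub1, -0.66 for Slitrk6, -0.80 for Ldlrad1, -0.57 for Shisal2a, -0.65 for Cmbl, -0.78 for Plxnb3 and -0.78 for Sytl1. That score ranged from -0.49 to 1.17 in WT, highest in WT 5, and from -0.66 to 0.59 in TKO, and its own correlation with the ciliary score was -0.65. With the score of neuroendocrine, ionocyte and tuft cells, r lay between -0.88 for Ldlrad1 and -0.65 for Shisal2a. With the score of dividing cells it lay between -0.74 for Plxnb3 and -0.26 for Slitrk6. With the score of the 19 multiciliation regulators, a list that holds transcription factors such as Foxj1 and other genes as well, it lay between -0.32 and 0.30. Over 105 relations of a gene with a score, limma's adjusted p over all genes passed only for the ciliary score with Ldlrad1 and Plxnb3. The smallest for the olfactory score was 0.0597, for Ldlrad1. This p is adjusted within each score, so it does not rank the scores by strength. For Ldlrad1, r with the neuroendocrine, ionocyte and tuft cell score was -0.88 (exact permutation p = 0.00153, adjusted 0.455), against 0.85 with the ciliary score. The slope on it was -2.66 (SE 0.47, limma adjusted p = 0.0836), and it correlated with the ciliary score at -0.80. Without WT 1 and WT 5, the arrays farthest from its median, r with it ranged from -0.79 for Ldlrad1 to 0.033 for Sytl1. With a score of non-epithelial cells, r lay between -0.017 for Cmbl and 0.37 for Ldlrad1. Without WT 2 and TKO 3, the arrays farthest from the median of that score, r lay between 0.57 for Ldlrad1 and 0.80 for Sytl1. The values with arrays left out were not tested. With the olfactory score as a covariate, the ciliary slopes of Ldlrad1 and Plxnb3 were 1.27 and 1.07 (limma adjusted p = 0.199 and 0.230). The part of olfactory tissue in the levels of the 7 genes was not tested further.

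**Figure D3:**
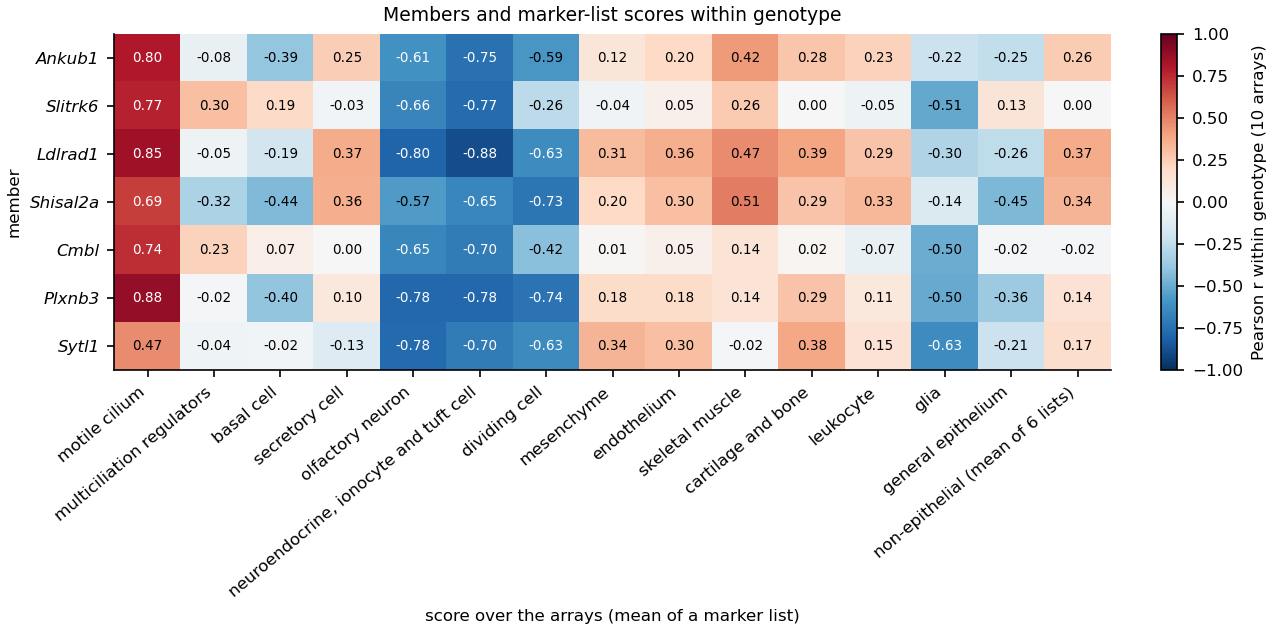
Pearson's r over 10 arrays, within genotype, of each of the 7 genes with the score of each cell type list. Correlations with the motile cilium score are positive (0.47 to 0.88) and those with the olfactory neuron score negative (-0.80 to -0.57) for every gene.

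Between genotypes, dividing cell genes were higher in TKO, with 11 of 22 called higher by limma (4.39% of all genes) and none lower, and the highest WT score (-0.03) was below the lowest TKO score (0.11). Of 19 multiciliation regulators, 8 were called higher and none lower, against the same 4.39%. Of 16 skeletal muscle genes, 3 were called lower (1.12% of all genes), with a score from -0.45 to 0.89 in WT and from -0.55 to 0.25 in TKO. Their part in the differences of the 7 genes was not tested. With the ciliary score in the model beside sex, TKO minus WT was -1.17 for Ankub1 and Slitrk6, -0.90 for Ldlrad1, -0.93 for Shisal2a, -0.75 for Cmbl, -0.62 for Plxnb3 and -0.72 for Sytl1. With a score of non-epithelial cells in its place the differences lay between -1.62 for Slitrk6 and -0.87 for Plxnb3 and Sytl1. These models were added after the data were seen.

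Sex was not used to choose the genes. Male minus female, with genotype in the model, was 0.11 for Ankub1, 0.27 for Slitrk6, 0.38 for Ldlrad1, 0.20 for Shisal2a, 0.24 for Cmbl, 0.17 for the X-linked Plxnb3 and 0.19 for Sytl1. Limma called 0 of the 7 (adjusted p from 0.688 to 0.915, and 0 at an unadjusted p under 0.05), where 0.0361% of all genes were called. Only 1 WT embryo was male, so these differences are imprecise, with SE from 0.14 to 0.21. Among females only, 4 WT against 2 TKO, the differences lay from -1.23 (Slitrk6) to -0.66 (Plxnb3). That each of the 7 was lower in TKO females was fixed by the rule that chose the genes.

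Families and partners of the 7 genes were examined for decreases of their own, since the rule did not use them. Of 128 listed relatives, 124 were measured and 109 tested. By limma, 4 rose, 3 fell and 102 did not pass. In either direction 6.42% were called, near the 5.51% over all genes. By direction, 4.39% of all genes rose and 1.12% fell, the shares to set beside the counts of each list below. The median difference was -0.01.

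The partners of plexin-B3 included its ligand. Of 21 plexins, semaphorins of classes 4 and 5 and their effectors, none rose and 1 fell. Sema5a, which encodes semaphorin 5A, had log2 intensities of 6.72, 6.98, 7.09, 6.96 and 6.72 in WT 1 to 5 and 6.25, 6.61, 6.18, 7.03 and 6.73 in TKO 1 to 5. It was lower on 3 TKO arrays than on every WT array and within the WT range on the others. With sex in the model it fell by 0.51 (1.43-fold lower, limma adjusted p = 0.0229), but with genotype alone the difference was -0.34 (limma adjusted p = 0.218), and the call was lost in 6 of 21 alternative settings. Sema4b (0.18), Met (0.29) and Plxna4 (-0.26) did not pass.

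In the shisa family, 1 of 9 genes rose and none fell. Shisa8, a relative of Shisal2a that encodes an AMPA receptor modulator, had log2 intensities of 7.75, 7.75, 7.16, 7.79 and 7.95 in WT 1 to 5 and 8.60, 8.70, 8.83, 8.74 and 8.68 in TKO 1 to 5. It moved opposite to Shisal2a, and its groups did not overlap. The increase was 1.14 (2.20-fold, limma adjusted p = 0.000426), and the call held in 21 of 21 alternative settings. Shisa7 (0.37), Shisa6 (0.37) and Shisa5 (0.10) did not pass. The SLITRK family had 1 tested gene, Slitrk5, at -0.16 (limma adjusted p = 0.622).

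None of 15 synaptotagmin-like genes and other Rab27 partners was called by limma. Exph5 (-0.27), Sytl3 (-0.36), Rab3a (-0.18) and Rab27b (-0.17) had the smallest p. Among 15 genes of LDL receptor class A proteins, the endocytic receptor gene Lrp1 fell by 0.34 (limma adjusted p = 0.0204, lost in 6 of 21 alternative settings), and Lrp5 (0.19), Lrp2 (0.47) and Lrp10 (-0.22) did not pass. Among 13 genes of ester-hydrolysing enzymes, the paraoxonase gene Pon1 rose by 0.52 (limma adjusted p = 0.0204, lost in 5 of 21), from 7.62 ± 0.17 to 8.17 ± 0.18 (SD, n = 5 each). Ces2g (-0.46), Ces1e (0.26) and Pon3 (0.15) did not pass.

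Of 35 genes named for ankyrin repeat domains, 2 rose and 1 fell. Ankrd54 rose by 0.42 (limma adjusted p = 0.0062) and Ankrd52 by 0.52 (limma adjusted p = 0.0118), with the calls lost in 2 and 3 of 21 alternative settings. Ankrd2 fell by 0.39 (limma adjusted p = 0.0421), but 13 of 20 alternative settings did not call it. Ankrd65 stood at -0.57 and did not pass.

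**Figure D4:**
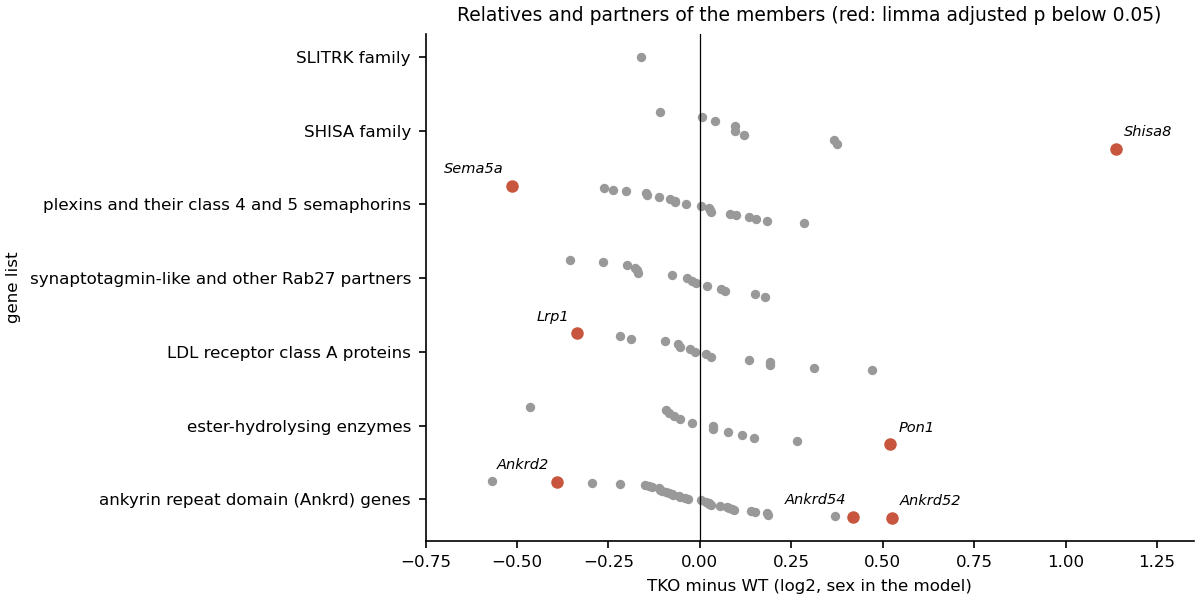
TKO minus WT (log2, with sex in the model) for the tested relatives and partners of the 7 genes, by list, with genes at a limma adjusted p under 0.05 in red (points are offset vertically only for legibility). Most points lie near 0, and Shisa8 stands alone at 1.14.

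Genes beside the 7 on the chromosome were compared in the RefSeq order of GRCm38.p6, since position was not used to choose them. Of 70 tested genes, 5 on each side of each of the 7, limma called 3 (4.29%, against 5.51% over all genes). Of these, 1 was lower, where 1.12% of all genes were called lower. Ndc1, a nuclear pore gene near Ldlrad1, rose by 0.96 (limma adjusted p = 0.00128), from WT values between 6.80 and 7.28 to TKO values between 7.67 and 8.18. Fam76a near Sytl1 rose by 0.61 (limma adjusted p = 0.00678). Their calls were lost in 1 and 3 of 21 alternative settings. The lower neighbour was Sema5a, which lies near Cmbl. Ldlrad1, Shisal2a and Sytl1 are on chromosome 4, as is the deleted Mir34a, with 518, 500 and 214 tested genes between.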

How the data were processed

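RNA of nasal respiratory epithelium from 10 embryos was measured on Affymetrix arrays. The deposited values are log2 intensities that the authors made by RMA in Affymetrix Expression Console, per the submitters' processing notes, with versions and array genome build not given in the sources used here. RMA puts all arrays on 1 distribution, so a shift shared by most genes would not be seen. Of 41345 probe sets, 23521 carried 1 gene symbol, 1814 several and 16010 none. The brightest probe set stood for each gene, and genes with a mean below 4.58, the 25th percentile, were left out. Limma 3.58.1 (R 4.3.3, intensity trend) fitted genotype and sex, or genotype and the ciliary score, with two-sided p-values adjusted by Benjamini-Hochberg over 16635 genes. The number of arrays limits the precision.

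The 7 genes, gene lists and tests were chosen with earlier results of these data known. Named relatives are up to 4 a list, called genes first and then by p, with the 3 most alike genes of each of the 7, the 3 genes next in size and called neighbours. On simulated data the genotype fit recovered 57.3%, 93.7% and 99.7% of changes of 0.5, 1 and 2 (log2). The slope fit recovered 22.4%, 78.5% and 97.3% of slopes of 1, 2 and 4. False calls made up 5.54% of the calls of the genotype fit and 5.04% of those of the slope fit. The simulated noise was independent between genes, so these shares may not hold where an array shifts many genes together. Alternatives covered covariates, filters, scaling, the replicate block and leaving out each array.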

Additional observations from a re-analysis of the deposited data

Results flagged for a closer look

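Values of the 7 genes and scores of the cell type lists were examined in 44 groups of 5 arrays for an array far from the others, where chance marks about 1 group in 20. The score of multiciliation regulators in WT 2 (-0.06) was above that of every other WT array, with a gap of 0.744 of the group's range. The secretory cell score in TKO 3 (-0.13) was below that of every other TKO array, with a gap of 0.781 of the range. None of the 7 genes had such an array in either group.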

How the results depend on the processing

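TKO minus WT was negative for each of the 7 genes in every setting that could be run (20 or 21 settings a gene). The rule that chose the genes fixes this sign wherever arrays or the sex term are left out, so the sign is no added support. The difference lay from -1.58 to -1.15 for Ankub1, -1.62 to -1.17 for Slitrk6, -1.26 to -0.86 for Ldlrad1, -1.33 to -0.79 for Shisal2a, -1.17 to -0.75 for Cmbl, -0.93 to -0.62 for Plxnb3 and -0.87 to -0.72 for Sytl1. A filter at the 50th percentile left out Slitrk6 and Plxnb3. Limma's 916 calls of TKO minus WT became 56 among females only, 101 with the non-epithelial score in the model, and 210 to 1284 when 1 array was left out. The 7 relatives called became 1 among females only, 1 with the non-epithelial score, and 2 to 10 when 1 array was left out. The 3 neighbours called became 7 with the replicate block, 1 with no filter, 7 with array weights, 0 among females only (13 at an unadjusted p under 0.05, limma), 6 of those within 10 genes on each side, and 2 to 6 when 1 array was left out. The 6 genes called for sex became 14 with the replicate block, 3 at the stricter filter and 4 to 79 when 1 array was left out, with 79 without WT 4. The 574 slopes called became 1 with the replicate block, 123 with the olfactory covariate and 0 to 647 when 1 array was left out, with 0 without WT 5 and 257 without WT 3. With the block, adjusted p by limma was 0.628 for the slope of Ldlrad1 and 0.760 for that of Plxnb3. Arrays of the same replicate number deviated from their group means with correlations of -0.085, -0.059, -0.127, 0.379 and -0.063. These were not tested, and whether the numbers pair the samples is not known here. The slope of Sytl1 turned to -0.093 with the olfactory covariate (limma adjusted p = 0.949). The slope of Ankub1 passed in 3 settings, with a limma adjusted p of 0.0342 with the non-epithelial covariate, 0.0419 with arrays centred on their medians and 0.0217 without WT 2. The slopes of Slitrk6 and Cmbl passed without TKO 5 and that of Shisal2a without TKO 2. The cause of these changes was not tested. The olfactory covariate of the slope, and the ciliary and non-epithelial scores in the model of TKO minus WT, were chosen after seeing the data.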
